A study of Rattus norvegicus with 24 samples.

Results

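Adrb3 and 8 genes of the heat-producing programme of fat (Ucp1, Cidea, Ppargc1a, Dio2, Cox8b, Cox7a1, Elovl3 and Prdm16) were followed in the mammary gland of young rats given estradiol. Every probe set annotated to exactly 1 of these 9 genes was taken. The array names 14217 genes in this way, and the 9 had 12 of the 31042 probe sets tested, with 3 for Ppargc1a, 2 for Prdm16 and 1 for each other gene. The list of genes came from textbook knowledge of brown fat, but it was drawn up with earlier results of these data known.

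The tissue was the pair of abdominal mammary glands of Sprague-Dawley rats, collected on postnatal day 33 and measured on 24 Affymetrix arrays. Male and female rats carried osmotic pumps under the skin that released the ovarian hormone 17β-estradiol, starting at weaning on postnatal day 21. The doses were 0, 0.1, 1 and 10 µg/kg/day, which with sex makes 8 groups of 3 arrays. The sample labels list the dose under a diet tag, whereas the series' design text describes the pumps, which are followed here. The controls carried a pump as well and received a dose of 0. The labels name neither a gonadectomy nor a genetic modification. Whether the 3 arrays of a group came from 3 animals is not given in the labels, so p-values measure the spread between arrays, which may be partly technical. The replicates are numbered 1 to 12 within each sex, as in the sample titles.

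A gland at this age is a network of epithelial ducts in a fat pad, with muscle and skin lying against it. In fat cells, noradrenaline released by sympathetic nerves binds the β3-adrenergic receptor encoded by Adrb3, and the receptor raises cyclic AMP. Cyclic AMP starts lipolysis in white and brown fat cells. In brown and beige fat cells it also turns on Ucp1, whose protein lets mitochondria release energy as heat. The other members act around this step: Prdm16 and Ppargc1a control transcription, Dio2 activates thyroid hormone, Cidea coats lipid droplets, Elovl3 lengthens fatty acids, and Cox8b and Cox7a1 encode subunits of cytochrome c oxidase.

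The deposited values are signed log values, taken here as log2. They appear to be centred on a level near 0 within each sex, which was inferred from the values. A value therefore says how far an array lies from that level, which is not always the middle of the arrays of its sex. No absolute level, no comparison of levels between genes and no difference in level between males and females can be read from them, and no marker can be shown to be absent. Differences between doses within a sex remain, as does the comparison of those differences between the sexes. Differences were tested with limma, with p-values adjusted over all 31042 probe sets by the Benjamini-Hochberg method, and a probe set was called at an adjusted p under 0.05. Folds assume that the log base is 2.

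Upstream sequences are shown for the 3 other members with a called probe set and for Ppargc1a, whose window holds the full cyclic AMP element. RefSeq promoter windows (build GRCr8, 250 bases before and 50 after the start) matched 8 of the 9 members, all but Adrb3. Both strands of each window were searched for 5 motifs. These were the estrogen response element (GGTCA and TGACC with any 3 bases between), its shorter part GGTCA, the cyclic AMP response element TGACGTCA, its shorter part TGACG, and the PPAR element. The short motifs are contained in the full ones. The 250 bases before the start are printed below, 5′ to 3′ on the gene's strand, with capitals marking the matched motifs. Cidea lies at chr18:63164567-63164816 on the plus strand, Elovl3 at chr1:254938481-254938730 on the plus strand, Prdm16 at chr5:170485805-170486054 on the minus strand and Ppargc1a at chr14:63634058-63634307 on the plus strand.
Cidea: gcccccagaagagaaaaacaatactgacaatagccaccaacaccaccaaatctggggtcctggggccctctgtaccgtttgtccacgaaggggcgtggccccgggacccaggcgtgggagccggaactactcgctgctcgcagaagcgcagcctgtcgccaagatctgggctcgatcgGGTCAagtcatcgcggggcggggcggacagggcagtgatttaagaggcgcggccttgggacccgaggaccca
Elovl3: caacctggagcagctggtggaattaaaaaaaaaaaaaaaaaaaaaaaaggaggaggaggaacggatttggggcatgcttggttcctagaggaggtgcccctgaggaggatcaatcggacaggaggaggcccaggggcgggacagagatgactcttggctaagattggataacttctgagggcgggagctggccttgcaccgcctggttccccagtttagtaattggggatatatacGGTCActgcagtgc
Prdm16: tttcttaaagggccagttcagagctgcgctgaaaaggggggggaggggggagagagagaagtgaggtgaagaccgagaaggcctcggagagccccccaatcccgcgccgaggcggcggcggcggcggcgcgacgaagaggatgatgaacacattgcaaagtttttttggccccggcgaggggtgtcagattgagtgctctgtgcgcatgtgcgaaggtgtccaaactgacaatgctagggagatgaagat
Ppargc1a: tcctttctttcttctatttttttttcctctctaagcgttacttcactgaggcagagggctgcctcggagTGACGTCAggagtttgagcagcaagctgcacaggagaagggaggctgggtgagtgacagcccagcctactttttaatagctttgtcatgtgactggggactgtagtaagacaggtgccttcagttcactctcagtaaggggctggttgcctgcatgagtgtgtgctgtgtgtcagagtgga

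The capitals in the Cidea sequence mark a GGTCA that begins 72 bases before the start, and those in the Elovl3 sequence a GGTCA that begins 14 bases before it. Of 33469 RefSeq promoter windows, 40.5% hold this short motif on either strand. The windows of Cox8b and Cox7a1, which were not called in any comparison, hold it as well, 144 and 82 bases before the start. Prdm16, the transcriptional regulator, has no match to any of the 5 motifs. Ppargc1a has TGACGTCA beginning 181 bases before the start, a motif in 1.83% of all windows. The full estrogen response element occurs in 0.0269% of all windows and the PPAR element in 0.0538%, and neither is found in the 8 matched windows. A match is a description of the letters and not evidence of binding.

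Some arrays stand apart, and their values bear on several members. The mean of 39 skeletal muscle probe sets ran from -2.47 to 2.01 in females and from -2.13 to 1.38 in males. Hepatocyte transcripts were high in 5 arrays: replicates 1 and 7 of the females and 2, 3 and 7 of the males, with means of 21 probe sets from 0.76 to 2.28. None of the 10 µg/kg/day arrays is among them, and at that dose 2 of the 21 were lower in females and 4 in males, with none higher. Beside this count and those below, 1.86% of all probe sets were called at that dose in females and 17.5% in males. The male count of 4 is near that share and is no result about hepatocyte transcripts. Of the muscle probe sets, none was called at 10 µg/kg/day in females (median difference 1.53), and 2 were lower and none higher in males (median -0.79). White adipocyte markers moved with dose. At 10 µg/kg/day they were lower in 17 of 32 probe sets in females (median difference -0.74) and in 30 of 32 in males (median -1.21), and none was higher. In a whole gland, fewer fat cells and less RNA per fat cell cannot be told apart. Luminal epithelial markers were higher in 3 of 22 probe sets in females and in 7 of 22 in males, with none lower. The difference between the 3′ and 5′ β-actin control probe sets, a sign of RNA quality, was -0.56 to -0.06 in male controls and -0.02 to 0.16 in males at 10 µg/kg/day.

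Adrb3 was the member with the largest called difference, and it was lower at 10 µg/kg/day in both sexes. The 3 female controls read 1.07, 0.73 and 0.82. At 10 µg/kg/day the females read -1.13, -0.93 and -0.85. Every treated array lay below every control, and the difference was -1.84 ± 0.20 (SE, n = 3 a group, 95% confidence interval -2.27 to -1.42, limma adjusted p = 0.000281), a 3.59-fold fall. The male controls read 0.79, 0.10 and 0.43, and the males at 10 µg/kg/day -1.57, -1.76 and -1.32. These groups did not overlap either, with a difference of -1.99 ± 0.20 (SE, n = 3, interval -2.42 to -1.56, adjusted p = 6.81e-06), a 3.97-fold fall. Both calls held with each array left out in turn. In males the difference was -1.75 with the β-actin difference as a covariate (adjusted p = 0.00254). It was -2.34 without the 5 arrays with hepatocyte transcripts. That setting leaves replicate 1 as the only male control, so it cannot show how far the fall depends on those arrays. The falls did not differ detectably between the sexes: male minus female was -0.15 ± 0.29 (SE, interval -0.75 to 0.46, adjusted p = 0.815).

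At the lower doses most Adrb3 values lay between those of the controls and of the top dose. Females at 0.1 µg/kg/day read 0.02, 0.06 and -0.79, and at 1 µg/kg/day 0.10, 0.37 and -0.07. Both groups lay wholly below the controls and overlapped each other, but neither was called. The difference was -1.11 ± 0.20 at 0.1 (adjusted p = 0.0652) and -0.74 ± 0.20 at 1 µg/kg/day (adjusted p = 1). The call at 0.1 µg/kg/day turned on single arrays, with an adjusted p of 0.0247 without female replicate 4 and 0.043 without replicate 5.

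Males at 0.1 µg/kg/day read 0.19, 0.10 and 0.16, within the range of the controls (difference -0.29 ± 0.20, adjusted p = 0.545). Males at 1 µg/kg/day read -0.54, -0.83 and -0.31, all below the controls, and Adrb3 fell by 1.00 ± 0.20 (adjusted p = 0.0136). That call was lost without control replicate 1 (adjusted p = 0.0991) or replicate 8 (0.0566). It was also lost in a fit of the compared groups alone (0.0504) and without the 2 widest arrays (-0.82, 0.057). The difference was -0.48 with the adipocyte mean as a covariate (0.986). Without the 5 hepatocyte arrays, which leaves replicate 1 as the only male control, it was -1.36. The difference at 0.1 µg/kg/day was 0.82 ± 0.29 higher in males than in females (interval 0.21 to 1.42), with an unadjusted limma p of 0.0107 and an adjusted p of 0.621, and so was not called.

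The step from 1 to 10 µg/kg/day was called in both sexes. Adrb3 fell by 1.11 ± 0.20 in females (adjusted p = 0.0298) and by 0.99 ± 0.20 in males (adjusted p = 0.0429). Both calls were fragile: the female one was lost in 4 of 6 fits that left out 1 array, those without replicate 7, 8, 10 or 11 (adjusted p up to 0.206), and the male one in all 6 (0.0765 to 0.211). In order of mean, female Adrb3 ran from 0.87 ± 0.17 (SD, n = 3) in controls through 0.14 ± 0.22 at 1 and -0.23 ± 0.48 at 0.1 to -0.97 ± 0.14 at 10 µg/kg/day. In males the means followed the dose, from 0.44 ± 0.34 in controls through 0.15 ± 0.04 and -0.56 ± 0.26 to -1.55 ± 0.22. The neighbours in these orders that overlapped were 1 and 0.1 µg/kg/day in females and 0 and 0.1 µg/kg/day in males.

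**Figure D1:**
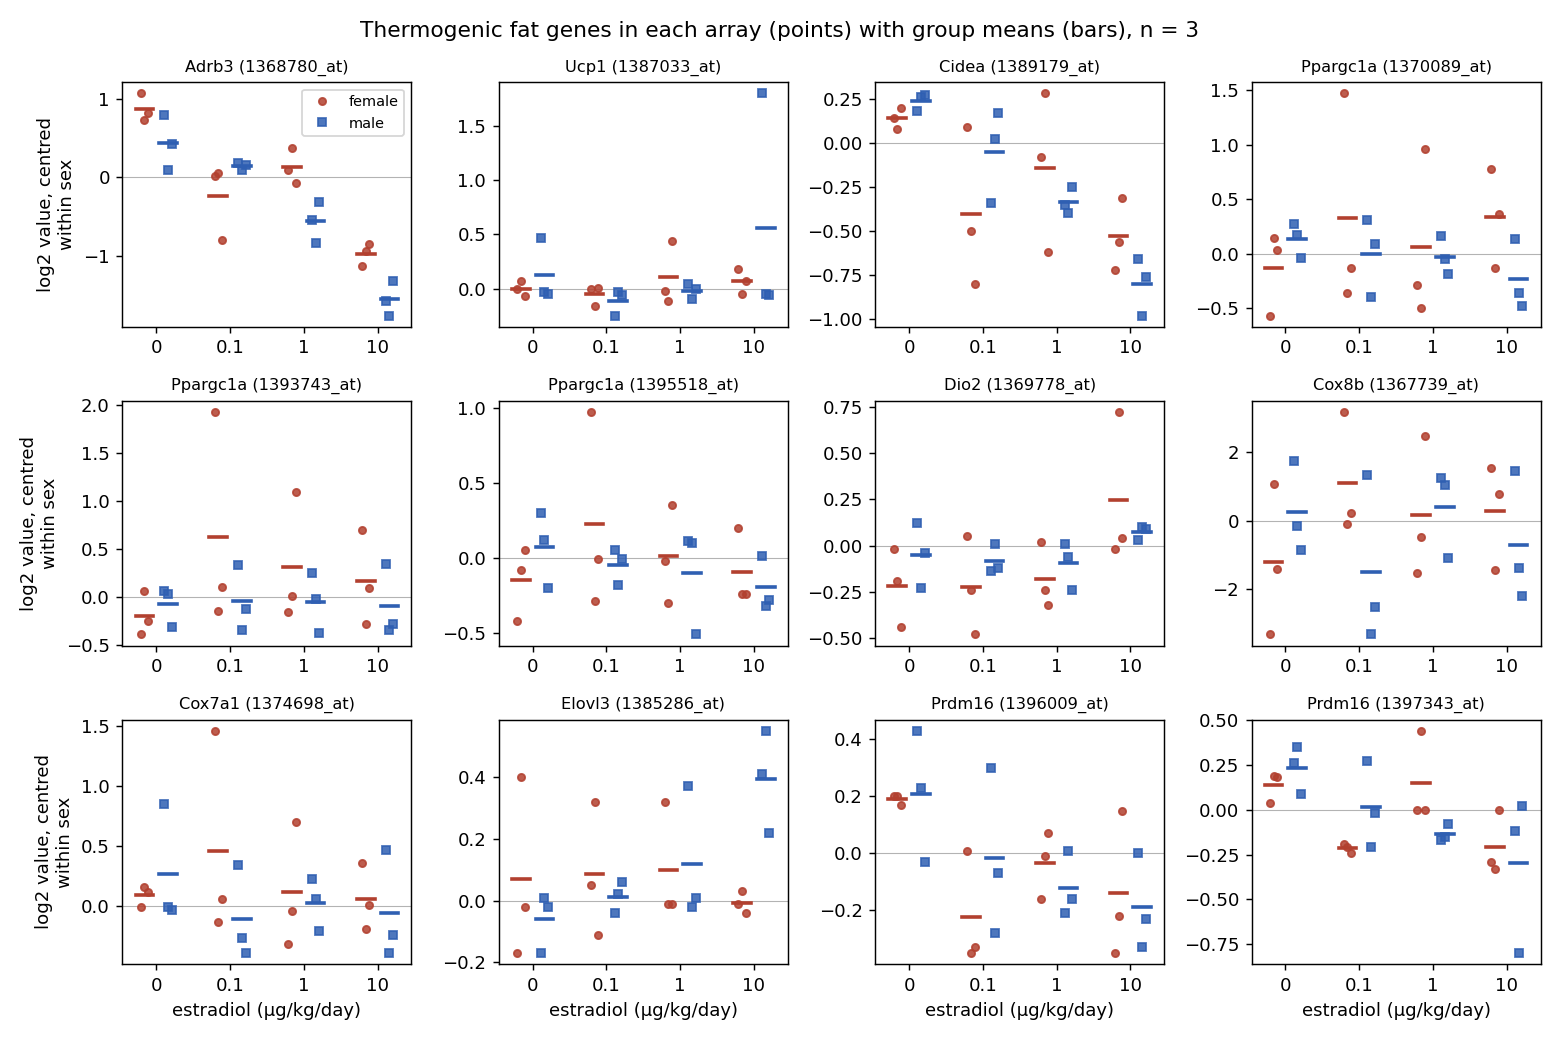
The 12 probe sets of the 9 genes in each array, as log2 values centred within sex, against estradiol dose; circles are females, squares males, and bars group means of 3 arrays. Adrb3 lies at -1.13 to -0.85 in females and -1.76 to -1.32 in males at 10 µg/kg/day, below all other arrays of the same sex, whereas Ucp1 has 1 array at 1.80.

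Across the group, Adrb3 was the only member called in females. At 10 µg/kg/day 1 of the 12 member probe sets was called in females, Adrb3, where 1.86% of all probe sets were called. In males 4 of 12 were called, Adrb3, Cidea and 1 Prdm16 probe set lower and Elovl3 higher, where 17.5% of all probe sets were called. The median difference of the 12 was 0.01 in females and -0.35 in males, beside a median of -0.0053 over all probe sets in each sex. Groups at 10 and 0 µg/kg/day did not overlap for 4 of the 12 in each sex, where 19.9% of all probe sets in females and 37.1% in males did not overlap. At an unadjusted limma p under 0.05 there were 4 of the 12 in females and 5 in males at 10 against 0 µg/kg/day. The shares of all probe sets were 13% and 32.1%. Females at 10 against 1 µg/kg/day had 1 member called (0.267% of all probe sets), males at 1 against 0 had 1 (3.63%) and males at 10 against 1 had 1 (0.387%), each of them Adrb3.

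No member was called by limma at 0.1 µg/kg/day in either sex or at 1 µg/kg/day in females, and in these comparisons no probe set on the array was called (0%). At an unadjusted p under 0.05 there were 4 of the 12 member probe sets in females at 0.1, 1 in females at 1 and 0 in males at 0.1 µg/kg/day. Beside them stood 3083 (9.93%), 847 (2.73%) and 3703 (11.9%) of all probe sets. The test of a different response in males and females called no member at any dose, where 0% of all probe sets were called at 0.1, 0.0483% at 1 and 1.28% at 10 µg/kg/day. At an unadjusted p under 0.05 that test had 1 of the 12 member probe sets at 0.1, 0 at 1 and 1 at 10 µg/kg/day. The shares of all probe sets were 7.3%, 9.85% and 19%.

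**Figure D2:**
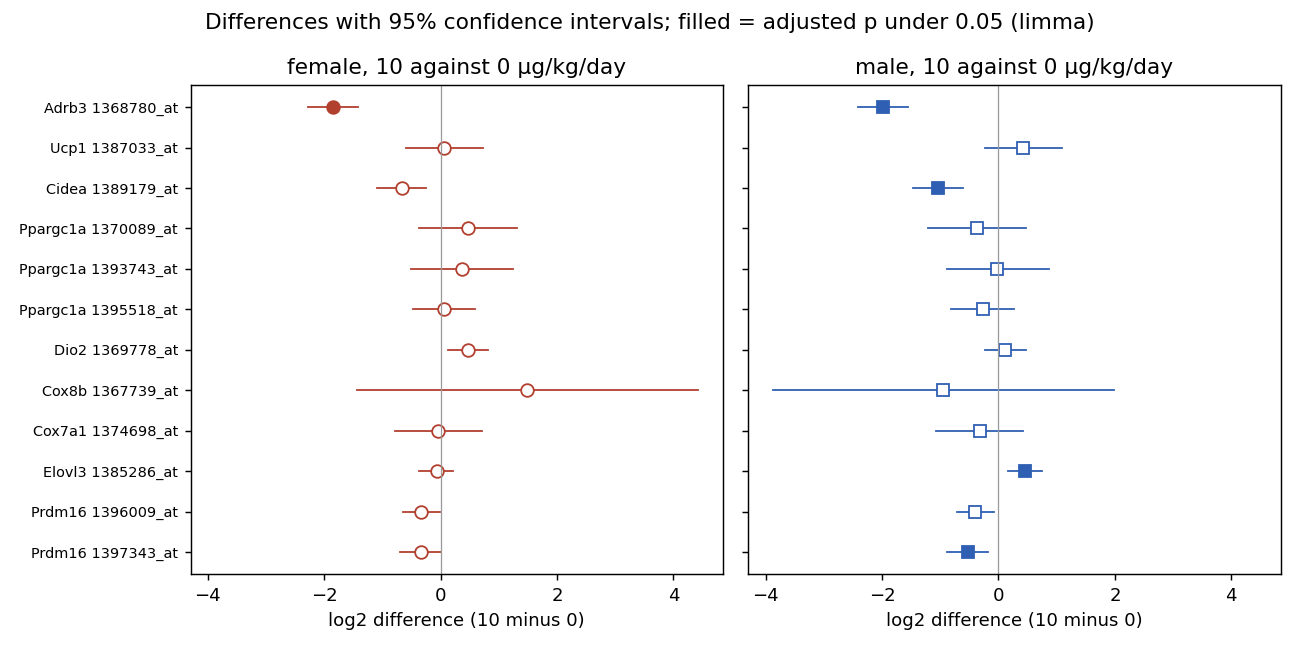
Log2 difference between 10 and 0 µg/kg/day for each member probe set with its 95% confidence interval, females on the left and males on the right; filled symbols have a limma adjusted p under 0.05. Adrb3 is filled in both panels at -1.84 and -1.99, and the Cox8b interval is the widest, from -1.44 to 4.43 in females.

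Cidea, which encodes a lipid droplet protein of brown and white fat cells, was lower at the top dose in males. Male controls read 0.18, 0.26 and 0.27. The males at 10 µg/kg/day read -0.66, -0.98 and -0.76, below every other male array. The difference was -1.04 ± 0.20 (SE, n = 3, interval -1.46 to -0.61, adjusted p = 0.0018), a 2.06-fold fall that stayed called with each array left out in turn. Once the 5 hepatocyte arrays were dropped, replicate 1 was the sole male control. The Cidea difference was then -0.98, and that fit is not counted as a check. The call was lost with the β-actin difference as a covariate (-0.88, adjusted p = 0.107) and with the mean of skin markers as a covariate (-0.95, 0.0634). With the adipocyte mean as a covariate the difference turned to 0.35 (0.978), and the part of these in the result was not tested further.

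In males at 1 µg/kg/day Cidea read -0.35, -0.40 and -0.25, also wholly below the controls, but the difference of -0.57 ± 0.20 was not called (adjusted p = 0.126). Female controls read 0.14, 0.08 and 0.20, and females at 10 µg/kg/day -0.72, -0.56 and -0.31. These groups did not overlap, and the difference of -0.67 ± 0.20 was not called (adjusted p = 0.104). Females at 0.1 and 1 µg/kg/day spread widely, from -0.80 to 0.09 and from -0.62 to 0.28. The male difference minus the female one was -0.37 ± 0.29 (interval -0.97 to 0.23, adjusted p = 0.504).

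Cidea followed the white adipocyte markers closely. Across the 12 arrays of a sex, Pearson's r with the mean of the 32 adipocyte probe sets was 0.94 in females and 0.96 in males, and Spearman's rho 0.94 and 0.92. The permutation p-values of r, adjusted over 96 relations computed, were 0.000823 and 0.00032. Without the 2 arrays farthest from the median r was 0.94 and 0.96, and after removal of the dose means it was 0.91 and 0.64. With the adipocyte mean subtracted, Cidea differed between 10 and 0 µg/kg/day by 0.05 in females (exact two-sided permutation p = 0.6) and 0.16 in males (exact p = 0.2). With 3 arrays a group the smallest p this test can give is 0.1.

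Adrb3 also followed the adipocyte markers across doses (r = 0.87 and rho = 0.88 in females, r = 0.93 and rho = 0.88 in males, adjusted permutation p of r = 0.00367 and 0.00064). Without the 2 farthest arrays r was 0.85 and 0.88. After removal of the dose means r was 0.75 in females and -0.02 in males, so the male relation did not hold within doses. The Adrb3 value minus the adipocyte mean was 0.55, 0.49 and 0.54 in female controls and -0.77, -0.47 and -0.54 in females at 10 µg/kg/day. Here too the groups were apart, by -1.12 (exact p = 0.1, the smallest possible). In males it was 0.24, -0.36 and 0.02 in controls and -0.94, -0.94 and -0.58 at 10 µg/kg/day, a difference of -0.79 (exact p = 0.1). In a limma fit with the adipocyte mean as a covariate the Adrb3 difference was -1.33 in females (adjusted p = 0.128) and -1.14 in males (adjusted p = 0.658), and neither was called. The covariate and the dose overlap strongly in these arrays: the adipocyte mean ran from 0.41 to 0.55 in male controls and from -0.82 to -0.63 in males at 10 µg/kg/day.

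**Figure D3:**
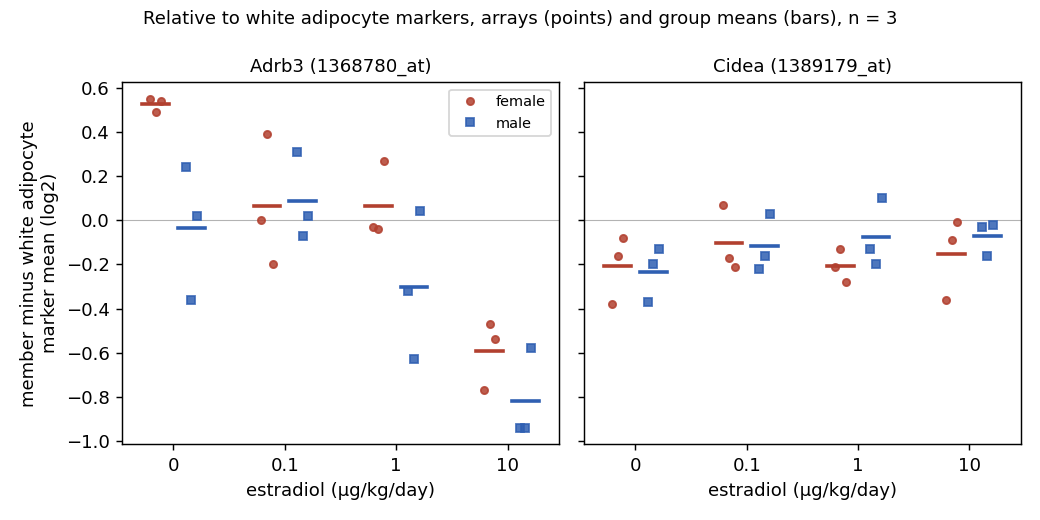
Adrb3 and Cidea minus the mean of the white adipocyte markers in each array (log2), against estradiol dose; circles are females, squares males, bars group means of 3 arrays. Relative Adrb3 is -0.59 in females and -0.82 in males at 10 µg/kg/day, whereas relative Cidea stays near its control mean at each dose.

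Prdm16, a transcriptional regulator of brown fat identity, gave weaker results. The male controls read 0.26, 0.35 and 0.09 on the first of its probe sets (1397343_at), and the males at 10 µg/kg/day -0.12, -0.80 and 0.02. The groups did not overlap and the difference of -0.53 ± 0.17 was called (interval -0.89 to -0.18, adjusted p = 0.0348). Replicate 11 carried much of it: without that array the difference was -0.28 (adjusted p = 0.224). The call was also lost without control replicate 1 (0.105) or 2 (0.0921), in a fit of the compared groups alone (0.137) and with quantile normalization (0.0942). Further losses came with muscle and hepatocyte covariates (0.0757), with the β-actin covariate (0.25) and without the 2 widest arrays (0.0924). The fit without the 5 hepatocyte arrays leaves replicate 1 as the only male control and is not counted here. With the skin mean as a covariate the difference was -0.27 (adjusted p = 0.519), and with the adipocyte mean -0.23 (0.993). The other probe set (1396009_at) read 0.43, 0.23 and -0.03 in male controls and 0.00, -0.33 and -0.23 at 10 µg/kg/day, which overlap. Its difference of -0.40 ± 0.15 was not called (adjusted p = 0.0768), though without control replicate 3 it was (0.0413). In females both probe sets lay below the controls at 10 µg/kg/day, by -0.34 ± 0.17 and -0.33 ± 0.15, and neither was called (adjusted p = 0.402 and 0.361). Prdm16 fell less than the adipocyte markers. With the adipocyte mean subtracted, the 10 against 0 difference was 0.67 on 1397343_at and 0.81 on 1396009_at in males. In females it was 0.38 and 0.39 (exact permutation p = 0.1 each, the smallest possible).

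Elovl3, an elongase of very long chain fatty acids made in brown fat and in sebaceous glands, was higher in males at the top dose. Male controls read -0.17, 0.01 and -0.02, and males at 10 µg/kg/day 0.41, 0.55 and 0.22. The groups did not overlap, with a difference of 0.45 ± 0.14 (SE, n = 3, interval 0.16 to 0.75, adjusted p = 0.0334). The call was lost in 4 of 6 fits that left out 1 array, those without control replicate 1 or 3 or treated replicate 10 or 11 (adjusted p up to 0.149). It was also lost with quantile normalization (0.151), with muscle and hepatocyte covariates (0.141) and with the β-actin covariate (0.30, adjusted p = 0.477). Further losses came with the adipocyte covariate (0.43, 0.982) and without the 2 widest arrays (0.118). The fit without the 5 hepatocyte arrays leaves replicate 1 as the only male control and is not counted here. Females read -0.17, 0.40 and -0.02 in controls and -0.01, 0.03 and -0.04 at 10 µg/kg/day, a difference of -0.07 ± 0.14 (adjusted p = 0.891). The response in males minus that in females was 0.53 ± 0.20 (interval 0.11 to 0.94), with an unadjusted p of 0.0162 and an adjusted p of 0.175.

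Skin markers moved with Elovl3 in males and less clearly in females. Across the 12 male arrays r with the mean of the skin and sebaceous list was 0.95 and rho 0.84 (adjusted permutation p = 0.00084 and 0.00855), and r was 0.86 without the 2 farthest arrays and 0.86 after removal of the dose means. In females r was 0.79 and rho 0.45 (adjusted permutation p = 0.0269 and 0.387), and r was 0.82 after removal of the dose means. Without the 2 farthest arrays the female r was 0.47, so the female relation rests largely on those arrays. In males at 10 µg/kg/day 6 of 16 skin and sebaceous probe sets were higher and 1 was lower, where 17.5% of all probe sets were called. The median difference of the list was 0.56. The 4 called genes with the smallest p included Lgals7, an epidermal galectin, at 2.28 ± 0.33 (adjusted p = 0.000131), and Krt5, a keratin of basal epithelium, at 1.86 ± 0.40 (adjusted p = 0.0037). The others were Krt71 at 3.94 ± 1.16 (adjusted p = 0.0249) and Tchh at 4.92 ± 1.51 (adjusted p = 0.0304). Luminal epithelial markers were also higher in these males (7 of 22 probe sets). Whether Krt5 came from skin or from the epithelium of the gland was not tested. The mean of the list was 0.65 to 1.41 in these arrays and -0.30 to -0.12 in male controls. In females no skin probe set was called at 10 µg/kg/day. Over all 24 arrays, 7 had a skin mean above 0.5, a limit set after the values were seen: female replicates 2, 5 and 7 and male replicates 7, 10, 11 and 12. Elovl3 lay between 0.22 and 0.55 in these 7 and between -0.17 and 0.06 in the other 17. With the skin mean as a covariate, an alternative added after the values were seen, the male Elovl3 difference was 0.03 (adjusted p = 0.936).

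Ucp1, the uncoupling protein itself, was not called in any comparison. A single array stood out: male replicate 10, at 10 µg/kg/day, read 1.80, while the other 2 arrays of its group read -0.05 and -0.06. The remaining 23 arrays lay between -0.25 and 0.47, with male control replicate 1 at 0.47 and female replicate 9 at 0.44 next. The male difference at 10 µg/kg/day was 0.43 ± 0.31 (interval -0.23 to 1.09, adjusted p = 0.368) and was -0.19 without replicate 10. Females at 10 µg/kg/day read 0.18, -0.05 and 0.07 against 0.00, 0.07 and -0.07 in controls, a difference of 0.06 ± 0.31 (adjusted p = 0.965). The muscle mean was 1.11 in male replicate 10, 1.38 in male replicate 1 and 1.73 in female replicate 9. Female replicate 4, with the highest muscle mean (2.01), read 0.00 for Ucp1. Pearson's r of Ucp1 with the muscle mean was 0.53 in females and 0.43 in males (adjusted permutation p = 0.233 and 0.402). Within doses it was 0.70 and 0.56. A part of muscle in the Ucp1 values was not tested.

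Dio2, the deiodinase that activates thyroid hormone inside the cell, was not called either. Females at 10 µg/kg/day read -0.02, 0.72 and 0.04 and controls -0.02, -0.19 and -0.44. The high array was replicate 11, and the difference was 0.47 ± 0.17 (adjusted p = 0.189). Males at 10 µg/kg/day read 0.03, 0.10 and 0.09, inside the spread of the controls at 0.12, -0.23 and -0.04, a difference of 0.12 ± 0.17 (adjusted p = 0.664).

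Cox8b, Cox7a1 and Ppargc1a varied widely between arrays of the same group, and no probe set of them was called in any comparison. Cox8b, the muscle and brown fat form of a cytochrome c oxidase subunit, spanned 6.47 log2 units in females and 5.03 in males. Its SD about the sex mean, 1.80, exceeded that of 99.9% of all probe sets. It read -3.31, 1.08 and -1.40 in female controls and 1.52, -1.43 and 0.77 in females at 10 µg/kg/day. In male controls it read 1.74, -0.16 and -0.86, and in males at 10 µg/kg/day 1.44, -1.38 and -2.18. The groups overlap in both sexes, and the differences were 1.49 ± 1.40 in females (adjusted p = 0.746) and -0.95 ± 1.40 in males (adjusted p = 0.686). Their intervals were wide, from -1.44 to 4.43 in females and from -3.88 to 1.99 in males.

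The arrays high in Cox8b were those high in skeletal muscle markers such as myosins and troponins. Pearson's r with the mean of the 39 muscle probe sets was 0.98 in females and 0.99 in males (rho 0.97 and 0.99, adjusted permutation p of r = 0.00032 for each), and r was 0.99 in each sex after removal of the dose means. Without the 2 farthest arrays it was 0.96 and 0.99. For Cox7a1, the heart and muscle form of another subunit, r was 0.74 and 0.88 (rho 0.76 and 0.95, adjusted p of r = 0.0195 and 0.00107). Without the 2 farthest arrays it was 0.81 and 0.89, and within doses 0.81 and 0.90. Female replicate 4, at 0.1 µg/kg/day, had the highest muscle mean (2.01) and read 3.16 for Cox8b and 1.46 for Cox7a1, and female control replicate 1 had the lowest (-2.47) and read -3.31 for Cox8b. The Cox7a1 difference at 10 µg/kg/day was -0.04 ± 0.36 in females (adjusted p = 0.983) and -0.32 ± 0.36 in males (adjusted p = 0.574), and neither was called.

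Ppargc1a, a coactivator of mitochondrial genes in muscle and brown fat, also varied with the muscle markers, and its 3 probe sets moved alike. On 1393743_at r was 0.85 in females and 0.76 in males (rho 0.96 and 0.77, adjusted p of r = 0.000576 and 0.0309), 0.88 and 0.81 without the 2 farthest arrays, and 0.84 and 0.89 within doses. On 1370089_at r was 0.85 and 0.75 (rho 0.83 and 0.75, adjusted p of r = 0.00384 and 0.0339), 0.77 and 0.89 without the 2 farthest arrays, and 0.87 within doses in each sex. On 1395518_at it was weaker, at 0.71 and 0.62 (rho 0.65 and 0.66, adjusted p of r = 0.038 and 0.123), and in females 0.45 without the 2 farthest arrays. Female replicate 4 again gave the highest values, 1.93, 1.47 and 0.97 on the 3 probe sets. At 10 µg/kg/day the differences ran from 0.05 to 0.47 in females and from -0.37 to -0.02 in males, each with an interval that includes 0. With the muscle and hepatocyte means as covariates the Cox8b difference turned to -0.70 in females (adjusted p = 0.172) and 0.26 in males (0.63). The Ppargc1a difference on 1393743_at went to 0.09 in females (0.923) and 0.66 in males (0.183), and the Cox7a1 difference to -0.39 (0.476) and 0.12 (0.834).

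**Figure D4:**
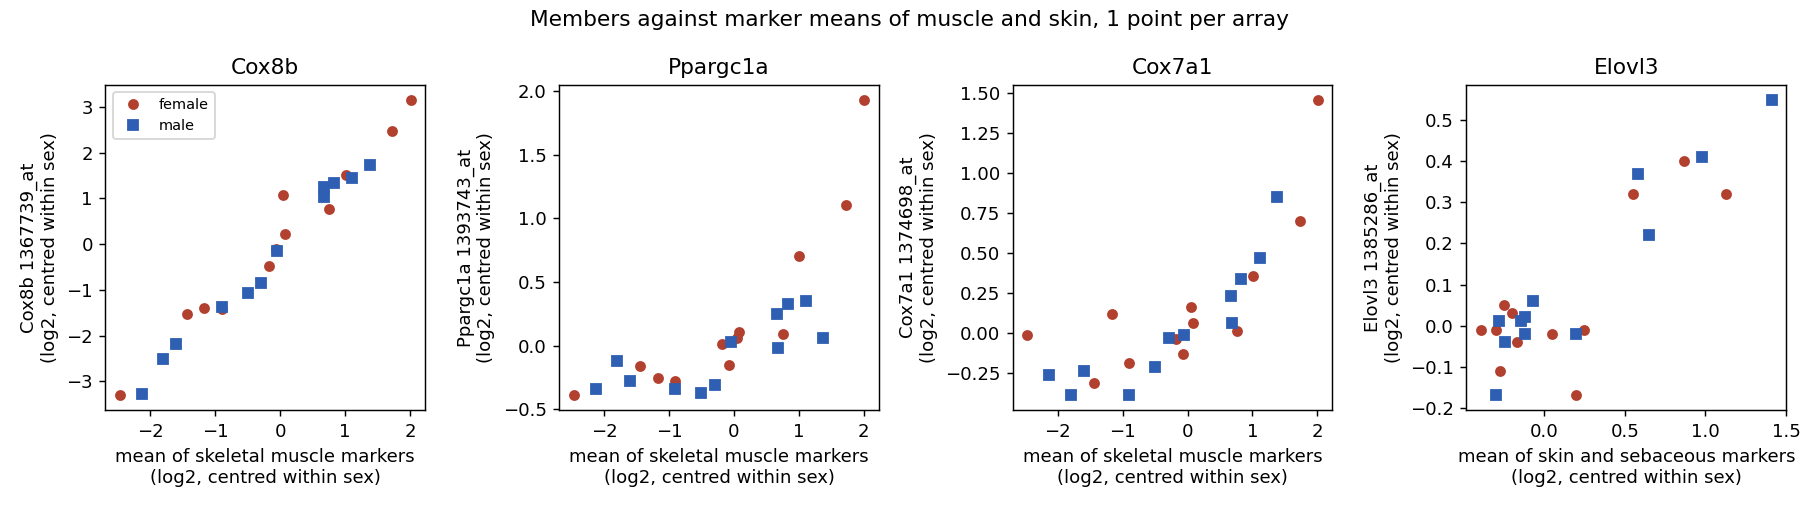
Cox8b, Ppargc1a (1393743_at) and Cox7a1 against the mean of the skeletal muscle markers, and Elovl3 against the mean of the skin and sebaceous markers, 1 point per array (log2, centred within sex), circles females and squares males. Cox8b rises along the whole muscle range from -2.47 to 2.01, and Elovl3 is at 0.22 or above in the 7 arrays with a skin mean above 0.5.

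The genes around Adrb3 in its pathway were read from lists drawn up with earlier results known, and called probe sets are counted at 10 against 0 µg/kg/day. Over all probe sets 1.86% were called in females and 17.5% in males, and a share of a list near these is no result about the list. Of 10 probe sets of the other adrenergic receptors, none was called in females and 2 were lower in males. They were Adra1d, an α1 receptor (-1.20 ± 0.22, adjusted p = 0.00111), and Adrb1, the β1 receptor (-0.35 ± 0.11, adjusted p = 0.0357). In females Adra1d was at -0.81 ± 0.22 (adjusted p = 0.0664), not called. The median difference of the list was -0.08 in females and -0.21 in males.

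Of 15 probe sets of the sympathetic nerve list, 1 was lower in females and 3 lower and 1 higher in males, with medians of -0.12 and -0.23. The lower one in females was Nrg4, a factor secreted by brown fat cells rather than a nerve gene (-0.57 ± 0.13, adjusted p = 0.0279), which was also lower in males (-0.72 ± 0.13, adjusted p = 0.00105). Slc18a2, the vesicular monoamine transporter, was lower in males (-0.63 ± 0.14, adjusted p = 0.00515), and Uchl1, a neuronal hydrolase, was higher (0.47 ± 0.09, adjusted p = 0.00214).

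Cyclic AMP signalling and lipolysis held the most called probe sets among the lists of the pathway: 8 of 53 lower in females with none higher, and 22 lower and 1 higher in males, with medians of -0.04 and -0.24. Lipe, hormone-sensitive lipase, fell by 0.77 ± 0.16 in females (adjusted p = 0.0143) and by 1.42 ± 0.16 in males (adjusted p = 1.14e-05); in females only 1 of its 2 probe sets was below 0. Pde3b, a phosphodiesterase that breaks down cyclic AMP, fell by 0.89 ± 0.18 in females (adjusted p = 0.0144). Abhd5, an activator of triglyceride lipase, fell by 1.70 ± 0.19 in males (adjusted p = 1.4e-05). Mgll, monoglyceride lipase, fell by 0.67 in females and 1.30 in males, and Plin1, which guards the lipid droplet, by 0.77 and 1.24. Lipe and Plin1 are also members of the white adipocyte list, so these counts are not independent of the adipocyte markers.

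Among 33 probe sets of brown fat transcription regulators, 1 was higher and 1 lower in females, and 5 were higher and 6 lower in males. Pparg, the nuclear receptor of fat cell formation and also in the adipocyte list, fell by 1.00 ± 0.18 in females (adjusted p = 0.00767) and by 1.54 ± 0.18 in males (adjusted p = 2.2e-05). Esrrb, an orphan nuclear receptor, was higher by 1.06 ± 0.19 in females (adjusted p = 0.00739) and 1.25 ± 0.19 in males (adjusted p = 0.000229). Thrb, a thyroid hormone receptor, was lower in males (-0.59 ± 0.11, adjusted p = 0.000928), and Rbl1, a pocket protein of the cell cycle, higher (0.61 ± 0.15, adjusted p = 0.00951). The medians were -0.04 and -0.08.

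Of 42 probe sets of other brown and beige fat genes, 1 was higher and 1 lower in females, and 2 were higher and 8 lower in males, with medians of 0.03 and -0.17. Cidec, a lipid droplet protein related to Cidea and also in the adipocyte list, was lower in both sexes (-0.88 ± 0.21, adjusted p = 0.0388, and -1.18 ± 0.21, adjusted p = 0.000984). Kcnk3, a potassium channel, was lower in males (-0.92 ± 0.18, adjusted p = 0.00187), as was S100b, a calcium-binding protein (-1.34 ± 0.17, adjusted p = 5.15e-05). For Kcnk3, 2 of 3 probe sets were below 0. Tmem26, a beige fat surface marker, was higher in males (0.90 ± 0.17, adjusted p = 0.00159), and Bmp7, a secreted growth factor, in females (0.57 ± 0.14, adjusted p = 0.0381).

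Of 24 probe sets of cytochrome c oxidase genes outside the members, none was called by limma in females at 10 µg/kg/day, where Cox8a, the form of subunit 8 found in most tissues, was at -0.27 ± 0.08 (adjusted p = 0.0983). In males 2 were lower, Cox4i2 (-0.90 ± 0.11, adjusted p = 3.14e-05) and Cox8a (-0.25 ± 0.08, adjusted p = 0.0349), and Cox7a2l was higher (0.29 ± 0.10, adjusted p = 0.0486). The medians of the list were -0.14 and -0.13.

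The probe sets whose pattern was most like that of Adrb3 were found by Pearson's r over the 24 arrays after the mean of each sex was subtracted. They were Col6a6 (r = 0.956), Col15a1 (0.944 and 0.938 on its 2 probe sets), Mcam (0.944) and C1h19orf12 (0.944). Col6a6 and Col15a1 encode collagen chains and Mcam an adhesion protein of blood vessel walls. All 5 probe sets were lower at 10 µg/kg/day in both sexes, Col6a6 with a difference of -1.40 in females and -2.11 in males. They were chosen for likeness to Adrb3 in these same arrays, so a fall at that dose follows from the choice and is no separate result. For Ucp1 the likeness was lower, with Mid2 (0.724), St18 (0.712), Setd1a (0.683), Adra1b (0.681) and Serpinb11 (0.681). None of these 5 was called at 10 µg/kg/day in either sex.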

How the data were processed

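The RNA of rat mammary glands was labelled with biotin and hybridised to 24 Affymetrix arrays, per the labels' protocols. The deposited table holds signed log values of 31099 probe sets, read here as log2 values. How values were summarized, normalized and centred, and their log base, is not given in the labels; GCOS is named per the submitters' processing notes, with no role or version. That values were centred within each sex was inferred from them: in a sex, the smallest positive and negative values matched in size within 2e-06 for 45.3% of probe sets in females and 41.9% in males. The remaining probe sets showed no such match, so the level they were centred on is not known. No 2 arrays held the same values. The arrays' number limits the precision.

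The members and lists were chosen with earlier results of these data known. Probe sets were named through GEO's platform annotation: 20826 had 1 gene, 436 several and 9780 none, and only those with 1 gene were named. After 57 control probe sets were left out, 1 mean per group was fitted to 31042 probe sets with limma 3.58.1 in R 4.3.3 (16 residual degrees of freedom and a prior of 2.95). There were 11 comparisons: 0.1, 1 and 10 against 0 and 10 against 1 µg/kg/day within each sex, and the difference between the sexes at each dose. P-values were adjusted by the Benjamini-Hochberg method and called under 0.05. On simulated data with log2 differences of 1 and 2 in 100 probe sets each, 89% and 94% were recovered for females at 10 µg/kg/day and 90% and 95% for males. False calls numbered 11 in females and 9 in males. The simulated noise was normal and independent between probe sets, unlike the shared muscle and skin variation of these arrays. The shares recovered therefore do not give the power for the members. All member probe sets are described. Genes named from the other lists are among the up to 4 called genes with the smallest p at 10 µg/kg/day, or up to 2 where none was called. Not all of those are named, and none is from the muscle, hepatocyte and luminal epithelial lists. The 5 probe sets most like Adrb3 and most like Ucp1 are named as well. Correlations with 4 marker means (numpy 2.4.6) used 100000 permutations. The alternatives were other fits, normalizations, filters, covariates and samples.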

Additional observations from a re-analysis of the deposited data

How the results depend on the processing

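The Adrb3 fall at 10 µg/kg/day in females stayed called under 11 of 12 settings, all but the white adipocyte covariate. In males that covariate also ended the call, and no other setting did. The setting without the hepatocyte arrays leaves replicate 1 as the only male control and is no check there. Over the named member values, 507 of 615 kept their direction and side of the threshold, 58 lost a call, 7 gained one and 42 uncalled values moved. One called value changed sign: Cidea in males at 10 µg/kg/day was 0.35 (adjusted p = 0.978) with the adipocyte covariate.

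Counts of called member probe sets changed as follows. For females at 0.1 against 0 µg/kg/day (0 called) they were 3 with array weights and 1 without the 2 widest arrays, and 0 to 1 with 1 array left out. For females at 10 against 0 (1 called) they were 2 with array weights, 2 without the widest arrays and 0 with the adipocyte covariate. For females at 10 against 1 (1 called) they were 0 in a fit of the compared groups alone, with quantile normalization, with the adipocyte covariate, without the 5 arrays with hepatocyte transcripts and at an adjusted p under 0.01, and 0 to 1 with 1 array left out. For males at 1 against 0 (1 called) they were 2 with array weights. They were 0 with the adipocyte covariate, without the widest arrays and at an adjusted p under 0.01, and 0 to 1 with 1 array left out. The fit without the hepatocyte arrays leaves 1 control here and is not counted. For males at 10 against 0 (4 called) they were 3 in a fit of the compared groups alone. They were 2 with quantile normalization, with muscle and hepatocyte covariates, without the widest arrays and at an adjusted p under 0.01. They were 1 with the β-actin covariate and with the skin covariate (added after the data were seen). They were 0 with the adipocyte covariate, and 2 to 4 with 1 array left out. The fit without the hepatocyte arrays, with 1 control, is again not counted. For males at 10 against 1 (1 called) they were 0 with quantile normalization, with muscle and hepatocyte, adipocyte, β-actin or skin covariates, without the hepatocyte arrays, at an adjusted p under 0.01 and with any of the 6 arrays left out. The cause of these changes was not tested.

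Same-numbered arrays of the sexes did not all vary together: 5 of 12 pairs, replicates 4, 5, 6, 10 and 11, had a correlation over 0.1 (0.44 to 0.59), and the others ran from -0.48 to -0.03, so the numbers were not taken to pair the arrays. With the replicate block the difference in response between the sexes called 0 members at each dose; Adrb3 stood at 0.82 (adjusted p = 0.446), -0.26 (0.742) and -0.15 (0.794) at 0.1, 1 and 10 µg/kg/day. Over all probe sets the calls went from 0 to 0, 15 to 27 and 397 to 443. Signal over background is not given in the values used here, so a weak signal and an unchanged gene cannot be told apart, which bears most on Ucp1.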
